A study of Mus musculus with 10 samples.

Results

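The mechanosensitive ion channels Piezo1 and Piezo2 and the Krüppel-like transcription factors Klf2, Klf4, Klf6 and Klf10 were measured in endothelial cells (ECs) of mouse long bone. These 6 genes were picked by name, for their place in the response of endothelium to blood flow, among the 22829 genes kept from tables of unique molecular identifiers (UMIs), which count RNA molecules per gene and cell. Each of the 6 genes had enough counts to be tested in every comparison below. Piezo channels open when the membrane is stretched and admit calcium, Piezo1 in many cell types including endothelium and Piezo2 best known from touch-sensing neurons. In endothelium, laminar shear stress acts through the kinases MEKK3, MEK5 and ERK5 on MEF2 transcription factors, which switch on Klf2 and Klf4, while the CCM proteins restrain this relay. KLF2 and KLF4 then raise genes of quiescent endothelium, such as Nos3 and Thbd, and hold down genes of activated endothelium, such as Vcam1 and Sele. Klf6 and Klf10 are rapidly induced factors of the same family, Klf10 being a gene that responds to TGF-beta.

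The cells came from femur and tibia of Cdh5-mTnG mice on a C57BL/6 background, in which the endothelial Cdh5 promoter drives a membrane tdTomato and a nuclear GFP, so that every group carried the same reporter. After collagenase digestion, crushing and removal of haematopoietic cells, double-positive cells were sorted and sequenced with a 10x 3′ kit. The labels name different versions of the kit without saying which library used which. There were 5 groups of 2 libraries: juvenile (3 weeks, both sexes), adult (12 weeks), aged (75 weeks), and 12-week-old mice given daily parathyroid hormone 1-34 (PTH) or alendronate, a bisphosphonate, every other day. Juvenile mice were of both sexes and the other groups female, so age and sex cannot be told apart at 3 weeks. The sequencing was a single experiment on pooled mice in each group, so the SEs and p-values below measure only the spread between libraries, which may be technical, and whether the adult libraries came from sham-injected mice is not stated in the sources used here. The adult libraries were the control of all 4 comparisons, which are therefore not independent of each other.

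The filter of 500 to 6000 genes and under 25% mitochondrial UMIs left 46282 of 47466 cells, with library totals from 10653583 to 28419323 UMIs and median depths from 3075 to 5084 UMIs per cell. Pairs of libraries shared between 8 and 78 cell barcodes, at most 1.36% of the smaller library, apart from pairs with an aged library, which shared 1 to 4. Both aged tables held more genes with a UMI than the others, 21349 and 21231 against 18828 to 20492. The kit version of the aged libraries is not known. A technical difference of these libraries, in kit, barcodes or genes counted, and age cannot be told apart in the comparison at 75 weeks. Clusters were named from marker lists, with the 6 genes left out of the clustering: 17000 cells were sinusoidal (bmEC-like), 7528 metaphyseal (mpEC-like), 4817 arterial (aEC-like) and 4754 type R (rEC-like), among 43634 ECs. The names were rebuilt here and may differ from those of the study. Cells were also typed by UMIs of the defining markers alone. Of the rEC-like cells this typed 852 as type R and 883 as metaphyseal, and left 2849 without a type. In each other type the matching markers led among the cells so typed. Levels of genes in a type or in all ECs are given below as counts per 1000000 UMIs (CPM) after the total of each sum was scaled by edgeR's TMM factor, over the 40 type sums or the 10 sums of all ECs. Changes between groups within a type were fitted with TMM factors from the sums of that type alone. Such a log2 change or fold can therefore differ from the ratio of the printed levels. Levels within clusters, of the markers next and of summed gene lists are per 1000000 UMIs of the plain total (plain CPM). The scaling matters most at 75 weeks: in bmEC-like cells it raised adult levels 1.098- to 1.104-fold over plain CPM and brought aged ones to 0.907 to 0.911 of it. Without the TMM factor the median log2 change of all genes at 75 weeks shifted by 0.35 over all ECs, by 0.41 in bmEC-like, 0.21 in mpEC-like, 0.10 in rEC-like and 0.08 in aEC-like cells, and the share of called genes that were higher went from 50.6% to 68.3% over all ECs. Changes at 75 weeks are therefore relative to the scaling, and members whose call or direction changes without it are named. The markers given next were among those that named the clusters, so their levels describe the types and do not check the names. Stab2, a scavenger receptor of sinusoids, averaged 1969.7 CPM in bmEC-like cells and 94.2 to 249.6 in the other types, Gja4, the arterial connexin-37, averaged 1369 CPM in aEC-like cells, Ramp3 averaged 477 in mpEC-like cells, and Timp4 and Aqp7 averaged 623 and 269 in rEC-like cells. Aplnr was shared between types, with 527 CPM for rEC-like and 1337 for mpEC-like cells. The leukocyte gene Ptprc averaged 0.308 to 0.362 CPM in the 4 types. The smaller of the 2 rEC-like clusters, with 1876 cells, held the lymphatic chemokine Ccl21a among its leading genes, and Ccl21a ranged from 78.9 to 3074 CPM over the rEC-like sums. Its type R name was narrow: it scored 2.16 for type R and 1.78 for lymphatic markers, where a lead of 0.3 was required. Neither Timp4 nor Aqp7 was among its leading genes. Without integration a cluster with much the same leading genes kept no name, for its small lead over lymphatic markers. The Ccl21a cluster made up 46.4% of juvenile, 32.3% of adult, 29.5% of aged, 59.0% of PTH and 36.6% of alendronate rEC-like cells. Of the 2 mpEC-like clusters the shallower, with 0.398 of the median depth of its libraries, made up 24.96% of juvenile, 41.6% of adult, 63.5% of aged, 45.7% of PTH and 60.9% of alendronate mpEC-like cells. Of the bmEC-like cells the shallowest large cluster, with 0.448 of the median depth, held 9.81% of juvenile, 16.7% of adult, 35.4% of aged, 17.0% of PTH and 21.3% of alendronate cells, and it had the haemoglobin genes Hbb-bs and Hba-a2 among its leading genes. Without these shallow mpEC-like and bmEC-like clusters 2 of the group changes within types lost their calls, Piezo1 at 75 weeks in mpEC-like and Piezo2 after PTH in bmEC-like cells. Without the Ccl21a cluster 1 did, Klf10 after alendronate in rEC-like cells, and Piezo2 at 3 weeks in rEC-like cells gave no value. Values within the clusters are given beside the changes they touch most.

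All 6 genes are protein coding, and their places are given for build GRCm38 (mm10). Klf2 (ENSMUSG00000055148) lies on chromosome 8 from 72319033 to 72321656 on the plus strand, Klf4 on chromosome 4 from 55527143 to 55532466 on the minus strand, Klf6 on chromosome 13 from 5861482 to 5870394 on the plus strand, and Klf10 on chromosome 15 from 38291463 to 38300706 on the minus strand. The bases before the transcription start of Klf2 and Klf4 (RefSeq, GRCm38.p6) are shown because the flow relay to these 2 genes ends at MEF2 factors. The capitals mark the MEF2 core CTANNNNTAG, and both windows are written 5′ to 3′ on the strand of the gene.
Klf2, chr8:72318812-72319032, plus strand: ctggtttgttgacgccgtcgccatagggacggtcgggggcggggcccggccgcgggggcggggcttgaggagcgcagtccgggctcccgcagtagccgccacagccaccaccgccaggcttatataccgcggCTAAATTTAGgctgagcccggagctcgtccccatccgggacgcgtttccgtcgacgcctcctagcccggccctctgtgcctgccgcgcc
Klf4, chr4:55532476-55532725, minus strand: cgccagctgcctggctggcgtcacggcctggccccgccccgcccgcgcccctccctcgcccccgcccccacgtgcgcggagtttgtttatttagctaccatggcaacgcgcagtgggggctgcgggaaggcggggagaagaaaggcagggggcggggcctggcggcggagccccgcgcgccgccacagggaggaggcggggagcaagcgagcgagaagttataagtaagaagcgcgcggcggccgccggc

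The Klf2 window of 221 bases held 1 match to the MEF2 core, a motif that reads the same on both strands, starting 118 bases before the RefSeq start. That start is base 72319062, while the printed window stops at 72319032, where the gene as placed above begins. The Klf4, Klf6 and Piezo1 windows held 0, and 3.20% of 32851 mouse promoter windows of 250 bases held at least 1. The GC box GGGCGG, searched on both strands, occurred 2 times before Klf2, 4 times before Klf4 and 1 time each before Klf6 and Piezo1, against 32.7% of all windows with at least 1. The shorter CACCC box, a core that KLF proteins bind, occurred 1 time before Piezo1 and 0 times before the other 3, against 52.0% of all windows. Klf10 and Piezo2 had no promoter entry in the table used. These are matches of letters and not measured binding. Piezo1 lies on chromosome 8 from 122481698 to 122551329 and Piezo2 on chromosome 18 from 63010213 to 63387183, both on the minus strand. An exon of Piezo1 overlaps Ctu2 on the opposite strand, and whether reads were counted by strand is not given in the sources used here.

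The channels differed in where they were expressed. Piezo2 was an mpEC-like gene: its lowest, median and highest level over the 10 libraries was 75.2, 145 and 212 CPM in mpEC-like cells, 4.39, 10.95 and 45.9 in rEC-like, 2.55, 3.82 and 9.51 in bmEC-like and 0, 2.47 and 9.91 in aEC-like cells. Every mpEC-like sum lay above every sum of the other 3 types. The aEC-like sum at 0 was that of juvenile replicate 1, where 0 of 565114 UMIs allows up to 5.31 plain CPM. Against the mean of the remaining types, Piezo2 was higher in mpEC-like cells by 4.54 ± 0.12 (SE, edgeR adjusted p = 4.50e-27) on the log2 scale, a fold of 23.2. The study itself picked Piezo2 as a marker of its metaphyseal ECs on these libraries, so this level is not independent evidence of the name. Piezo1, with lowest, median and highest levels of 57.0, 79.6 and 103 CPM in bmEC-like and 25.6, 35.2 and 54.3 in aEC-like cells, varied far less. It was highest in bmEC-like cells (79.6 ± 13.6 CPM, SD, n = 10), then mpEC-like (62.5 ± 12.3), rEC-like (49.9 ± 10.1) and aEC-like cells (37.9 ± 9.36), and bmEC-like lay above aEC-like cells in 10 of 10 libraries. The ranges of neighbouring types overlapped, and the bmEC-like excess over the rest, 0.72 ± 0.07 (SE, edgeR adjusted p = 2.35e-11), passed the p threshold but not the fold limit of 1 on the log2 scale.

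The 4 Klf genes shared a low level in sinusoidal cells. Klf2 had a lowest, median and highest level of 2082, 3593 and 4459.7 CPM for aEC-like, 1161, 1633 and 4257 for rEC-like, 581, 902 and 1695 for mpEC-like and 145, 483 and 587 for bmEC-like cells. Each aEC-like sum lay above each mpEC-like and bmEC-like sum, and rEC-like sums reached into the aEC-like range. Against the mean of the other types Klf2 was higher in aEC-like cells by 1.85 ± 0.11 (SE, edgeR adjusted p = 6.58e-17) and lower in bmEC-like cells, with a log2 difference of -2.31 ± 0.14 (SE, edgeR adjusted p = 4.45e-17), a fold of 4.96. Klf4 had a lowest, median and highest level of 310.5, 585 and 939.8 CPM for aEC-like, 165, 299 and 959.7 for rEC-like, 93.8, 117 and 149 for bmEC-like and 37.4, 111 and 162 for mpEC-like cells. Its levels in aEC-like and rEC-like sums all lay above those of the other 2 types. Klf4 was higher in aEC-like cells by 1.81 ± 0.12 and in rEC-like cells by 1.05 ± 0.13, and in rEC-like cells the difference fell under the limit of 1 without aged replicate 1 (0.98), aged replicate 2 (0.93), alendronate replicate 1 (0.98) or alendronate replicate 2 (0.996), with 15 principal components (0.83) and with DESeq2 (0.99). Klf6 led in rEC-like cells (399 ± 108 CPM), followed by aEC-like (288 ± 43.1), mpEC-like (168 ± 32.5) and bmEC-like cells (118 ± 39.7), and rEC-like lay above aEC-like cells in 10 of 10 libraries. Klf10 was the flattest of the Klf genes, at 203 ± 36.8 CPM in rEC-like, 174 ± 18.2 in mpEC-like, 169 ± 37.2 in aEC-like and 92.5 ± 17.6 in bmEC-like cells, and it was lower in bmEC-like cells than in each other type in 10 of 10 libraries.

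**Figure D1:**
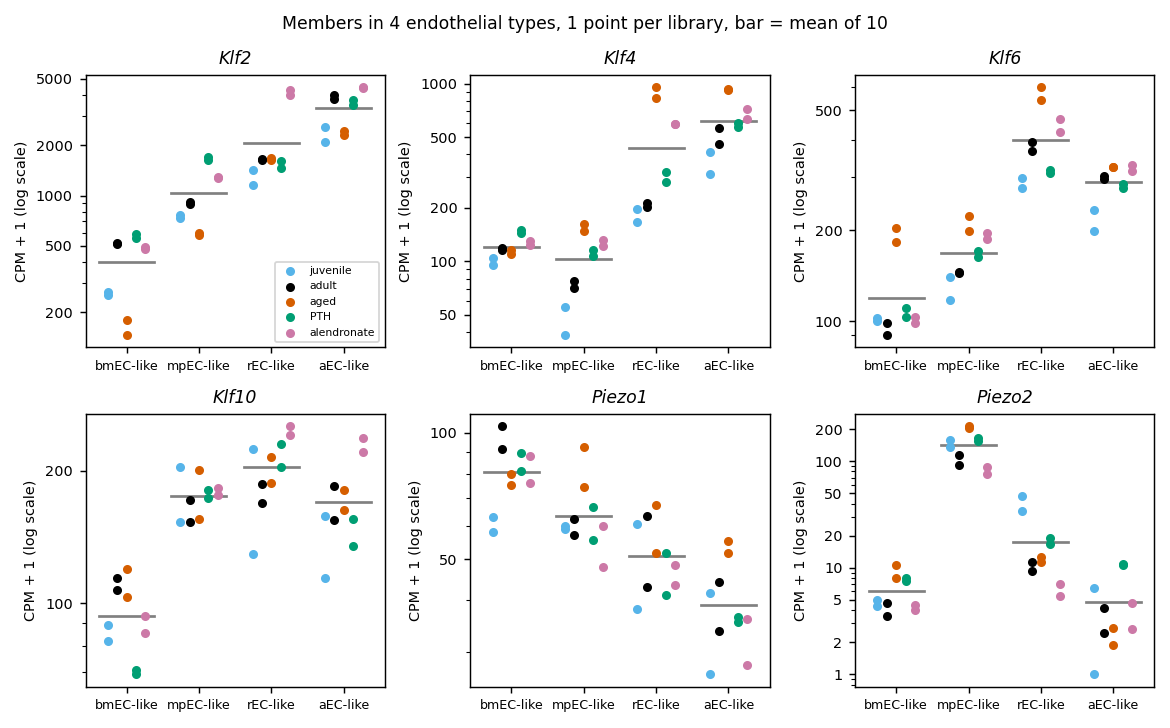
Level of each of the 6 genes in the 4 endothelial types as CPM + 1 on a log axis, with 1 point per library coloured by group and a bar at the mean of 10 libraries. Piezo2 points of mpEC-like cells (75.2 to 212 CPM) lie above all others, and Klf2 falls from aEC-like (2082 to 4459.7 CPM) to bmEC-like cells (145 to 587 CPM).

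In the test of each type against the mean of the other 3 (edgeR's quasi-likelihood test with library as a block, Benjamini-Hochberg adjusted p under 0.05 and a log2 difference over 1), 11 of 24 gene and type combinations passed. In bmEC-like cells 4 of 6 genes were lower, Klf2, Klf4 (-1.18), Klf6 (-1.21) and Piezo2 (-1.93), where 16.3% of all genes passed and 8.46% were lower. In aEC-like cells 3 of 6 passed against a background of 13.7%, with Klf2 and Klf4 higher and Piezo2 lower (-2.29). In mpEC-like cells 2 of 6 passed against 8.29%, Piezo2 higher and Klf4 lower (-1.68, but -0.997 and not called with 15 principal components), and in rEC-like cells 2 of 6 against 10.7%, Klf4 and Klf6 (1.15) higher. In rEC-like cells Klf2 (0.89) missed the fold limit and passed it without integration (1.34), without the Ccl21a cluster (1.17) and with types by marker UMIs (1.08), and Piezo2 there (-0.31) was called lower in the same 3 settings (-3.12, -2.21 and -2.18). Klf10 in bmEC-like cells (-0.98) missed only the fold limit and passed it without adult replicate 1 (-1.03), adult replicate 2 (-1.03), aged replicate 1 (-1.01) or aged replicate 2 (-1.03), and without the TMM factor (-1.09). The Piezo2 call in aEC-like cells was lost at clustering resolutions of 0.3 (-0.79) and 0.8 (-0.85), and without integration of the libraries the difference turned to 0.73.

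Between pairs of types 33 of 36 differences passed an adjusted p of 0.05, where 60.7% of all genes differed between bmEC-like and mpEC-like cells, 68.3% between bmEC-like and aEC-like, 62.7% between bmEC-like and rEC-like, 53.7% between mpEC-like and aEC-like, 48% between mpEC-like and rEC-like, and 35.8% between aEC-like and rEC-like cells, so that a call in this family says little by itself. Without the TMM factor the share of the called genes that were higher went from 49.9% to 32.3% for bmEC-like minus mpEC-like and from 50.3% to 61.4% for mpEC-like minus rEC-like cells. The 3 pairs that did not pass are given with log2 difference and nominal, unadjusted 95% interval. They were Piezo2 between bmEC-like and aEC-like cells (0.27, -0.34 to 0.87), Klf10 between mpEC-like and aEC-like cells (0.04, -0.15 to 0.23) and Klf10 between mpEC-like and rEC-like cells (-0.23, -0.43 to -0.04). Klf4 was called higher in bmEC-like than in mpEC-like cells (0.38 ± 0.16 SE, edgeR adjusted p = 0.0423), but the call was lost without either library of the adult, juvenile or PTH groups and without the TMM factor (0.22), and the difference turned to -0.03 without cells high in immediate early genes, which digestion of tissue can induce. The arterial and type R levels were also an insecure pair. The log2 difference of aEC-like minus rEC-like cells was 0.72 for Klf2, 0.57 for Klf4, -0.27 for Klf10 and -0.37 for Piezo1, and these calls were lost when cells were not integrated or were typed by the UMIs of the defining markers alone. Klf4, Klf10 and Piezo1 also lost their calls at resolutions of 0.3 and 0.8 and without the rEC-like cluster with Ccl21a. Leaving out 1 library ended the calls of Piezo1, without alendronate replicate 1 (-0.31), and of Klf10, without juvenile replicate 2 (-0.24), aged replicate 2 (-0.26), PTH replicate 1 (-0.24) or PTH replicate 2 (-0.23). Piezo2 in rEC-like cells rested on the cluster with Ccl21a: without it, the Piezo2 difference of aEC-like minus rEC-like cells turned from -1.48 to 0.41. The Piezo1 difference between bmEC-like and mpEC-like cells fell to 0.17 and was not called without cells high in immediate early genes.

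The share of cells with at least 1 UMI gave the same order of the types for Klf2, with each cell thinned to 1000 UMIs. Klf2 was found in 86.4% ± 9.08 of aEC-like cells (SD over libraries), 68.5% of rEC-like, 45.1% of mpEC-like cells and, at the low end, 21.8% of bmEC-like ones. The haematopoietic cells of the same libraries, used as a background from free RNA, held it in 29.4%, above the bmEC-like share, also unthinned (47.4% against 65.6%, at median depths of 3709 and 5352.5 UMIs). For Klf2 this background is not clean: the haematopoietic cluster led by immunoglobulin genes averaged 1112 CPM and the larger one, led by S100a8, 213 CPM, beside 355 to 446 CPM in the bmEC-like clusters. Klf4 was found in 40.0% of aEC-like and 29.1% of rEC-like cells, and in 9.69% of bmEC-like and 9.82% of mpEC-like cells, with 4.58% in haematopoietic cells. Piezo2 was found in 13.1% of mpEC-like cells and 1.20% of rEC-like cells, beside 0.727% of haematopoietic cells. Pooled over the cells of all libraries, the rEC-like share was 0.755%, about the haematopoietic one of 0.720%. At 2000 UMIs the rEC-like share lay above the haematopoietic one, at 2.49% against 0.739% over libraries and 1.62% against 0.804% pooled. The rEC-like cluster with Ccl21a averaged 27.8 plain CPM of Piezo2 and the larger one 3.68, beside 3.04 and 3.55 in the haematopoietic clusters. Piezo2 in rEC-like cells as a whole is therefore read neither as expressed nor as absent. At 1000 UMIs the mean Piezo2 shares of 0.623% in bmEC-like and 0.505% in aEC-like cells lay below the haematopoietic mean of 0.727% and are not read as expression. These are means over 10 libraries, and single libraries reached 1.32% in bmEC-like and 1.59% in aEC-like cells. At 2000 UMIs the bmEC-like mean (1.06%) lay above the haematopoietic one (0.739%) and the aEC-like mean (0.643%) below it. Piezo1 was sparse everywhere, from 3.70% of aEC-like to 7.06% of bmEC-like cells, beside 2.98%. Of the 24 gene and type combinations 21 lay above the haematopoietic share at 1000 UMIs, 22 at 2000 and 18 without thinning, by means over libraries. For Klf6 the haematopoietic background is not clean either, with single libraries up to 25.4% at 1000 UMIs. The bmEC-like share of Klf6 was close to it, at 10.2% against 9.35% over libraries and, the other way, 8.58% against 9.29% pooled. Thinning left out 523 of 17000 bmEC-like, 776 of 7528 mpEC-like, 151 of 4817 aEC-like and 384 of 4754 rEC-like cells as too shallow.

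Genes that sense flow beside the Piezo channels were less uniform. Of 13 such genes 4 passed the test in bmEC-like cells, 1 higher and 3 lower, where 16.3% of all genes passed, and their median difference (-0.03) was close to that of all genes (0.00). Trpv4, a calcium channel, averaged 88.4 ± 11.9 CPM (SD, n = 10) in aEC-like and 2.39 ± 1.99 in bmEC-like cells, and its log2 difference from the rest was 3.71 and -3.51. Flt4, the receptor VEGFR3, averaged 622 ± 115 CPM in bmEC-like cells and was higher there by 2.40. Among 5 partners of the Piezo channels, P2ry2, an ATP receptor that acts after Piezo1, was higher in aEC-like (3.10) and rEC-like cells (2.54) and lower in bmEC-like (-3.91) and mpEC-like cells (-1.73). Mdfi, whose family binds Piezo channels, was higher in mpEC-like (2.22) and bmEC-like cells (1.97) and lower in aEC-like (-2.72) and rEC-like cells (-1.46). None of the 7 relay genes from Map3k3 to Mef2d passed in any type, with 0 of 7 in each, where 16.3% of all genes passed in bmEC-like, 13.7% in aEC-like, 10.7% in rEC-like and 8.29% in mpEC-like cells. The same shares stand beside the counts of CCM, Klf and target genes below. Of the 4 CCM genes 1 passed, Heg1, which anchors the CCM proteins at the membrane, higher in aEC-like (1.65) and lower in bmEC-like cells (-1.31). Of 13 other Klf genes 6 had enough counts, and Klf9 alone passed, higher in rEC-like (1.34) and lower in mpEC-like cells (-1.13).

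Known targets of KLF2 and KLF4 did not all follow the 2 factors. Of 5 induced targets 4 had enough counts. Nos3, the endothelial nitric oxide synthase, averaged 87.1 ± 16.5 CPM in aEC-like and 14.8 ± 3.84 in bmEC-like cells, higher by 1.35 and lower with a difference of -2.07. S1pr1, a receptor for sphingosine-1-phosphate, was likewise higher in aEC-like (1.12) and lower in bmEC-like cells (-1.31). Thbd, the anticoagulant thrombomodulin, ran against the order of Klf2: it averaged 1057 ± 172 CPM in bmEC-like cells, the type lowest in Klf2, and was higher there by 1.69. Aqp1, a water channel, was highest in rEC-like cells at 4198 ± 754 CPM, with a difference of 2.17, and lower in aEC-like cells (-1.57). Of 6 repressed targets, the adhesion molecules Vcam1 (3.57) and Sele (4.06) were higher in bmEC-like cells. The vasoconstrictor Edn1 was higher in aEC-like (3.40) and rEC-like cells (2.57), the types high in Klf2, and lower in bmEC-like cells (-3.84). The median difference of the repressed targets was -2.04 for aEC-like, -0.73 for bmEC-like, -0.27 for mpEC-like and 1.28 for rEC-like cells, beside -0.01 to 0.00 for all genes.

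Summed over all ECs, Klf2 and Klf4 were lowest at 3 weeks, and Klf4 was highest at 75 weeks. Klf2 lay at 545 and 615 CPM in juvenile libraries, at 1180.1 and 1126 in adult, 969 and 982 in aged, 1699.9 and 1768 in PTH and 1889 and 1867 in alendronate libraries. Both treated groups lay above both adult libraries and the juvenile libraries below them. The aged libraries lay below the adult ones only after TMM scaling: in plain CPM they lay at 1176 and 1184 against 1122 and 1071. Klf4 lay at 95.4 and 93.4 CPM in juvenile, 168 and 154 in adult, 371 and 385 in aged, 219 and 224 in PTH and 275 and 286 in alendronate libraries. Here the aged libraries were the highest of all groups. Against adult, Klf2 changed by -0.99 ± 0.04 (SE, edgeR adjusted p = 7.38e-14) at 3 weeks and -0.24 ± 0.04 (SE, edgeR adjusted p = 2.92e-05) at 75 weeks, where it turned to 0.11 (adjusted p = 0.0244) without the TMM factor, while Klf4 changed by -0.77 ± 0.05 (SE, edgeR adjusted p = 2.01e-11) and 1.23 ± 0.04 (SE, edgeR adjusted p = 2.80e-16). Klf2 was higher after PTH by 0.59 ± 0.04 and Klf4 by 0.46 ± 0.04, and after alendronate Klf2 was higher by 0.70 ± 0.04 and Klf4 by 0.80 ± 0.04. Klf6 rose at 75 weeks, from 142 and 144 to 242 and 240.4 CPM (0.76), and Klf10 moved least after scaling, with no adult-based difference over 1.15-fold, although without the TMM factor it was called higher at 75 weeks (0.44). In these sums, fewer cells of a type and less RNA per cell cannot be told apart.

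The channels moved differently from the factors. Piezo1 was highest in the adult libraries, at 79.6 and 73.4 CPM, against 60.2 and 56.3 in juvenile, 62.7 and 63.6 in aged, 64.3 and 56.7 in PTH and 57.0 and 65.5 in alendronate libraries. All 8 other libraries lay below both adult ones, the aged ones only after TMM scaling, since in plain CPM they lay at 76.1 and 76.7 against 75.7 and 69.9. The change of Piezo1 at 75 weeks was -0.28 and turned to 0.07, not called, without the TMM factor. Piezo2 lay at 26.1 and 20.3 CPM in adult, 37.4 and 41.9 in juvenile, 49.3 and 52.3 in aged, 64.3 and 63.8 in PTH and 18.1 and 16.7 in alendronate libraries. It was called higher at 3 weeks (0.77), at 75 weeks (1.12) and after PTH (1.46), and lower after alendronate (-0.42), the last call being lost without adult replicate 1 (-0.22). The make-up of the ECs differed between groups, and its part in the changes over all ECs was not tested. Besides mpEC-like cells, Piezo2 was carried by the 2 large unnamed clusters (means of 42.6 and 37.7 plain CPM) and by proliferating cells (97.1). The mpEC-like cells were 13.1% of ECs in adult, 15.03% in juvenile, 20.2% in aged and 25.2% in PTH libraries. After alendronate they were 12.2% and 15.8% of ECs, a range that held both adult libraries. The bmEC-like share, lowest in Klf2, went from 54.4% in juvenile through 48.1% in adult to 20.4% in aged libraries, and was 28.0% after PTH and 37.3% after alendronate. The aEC-like share, highest in Klf2, was 3.76% in juvenile, 8.73% in adult, 18.9% in aged, 13.0% in PTH and 13.3% in alendronate libraries. The rEC-like share was 1.92% in juvenile, 6.83% in adult and 19.3% in aged libraries, with 9.30% after PTH and 18.1% after alendronate.

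**Figure D2:**
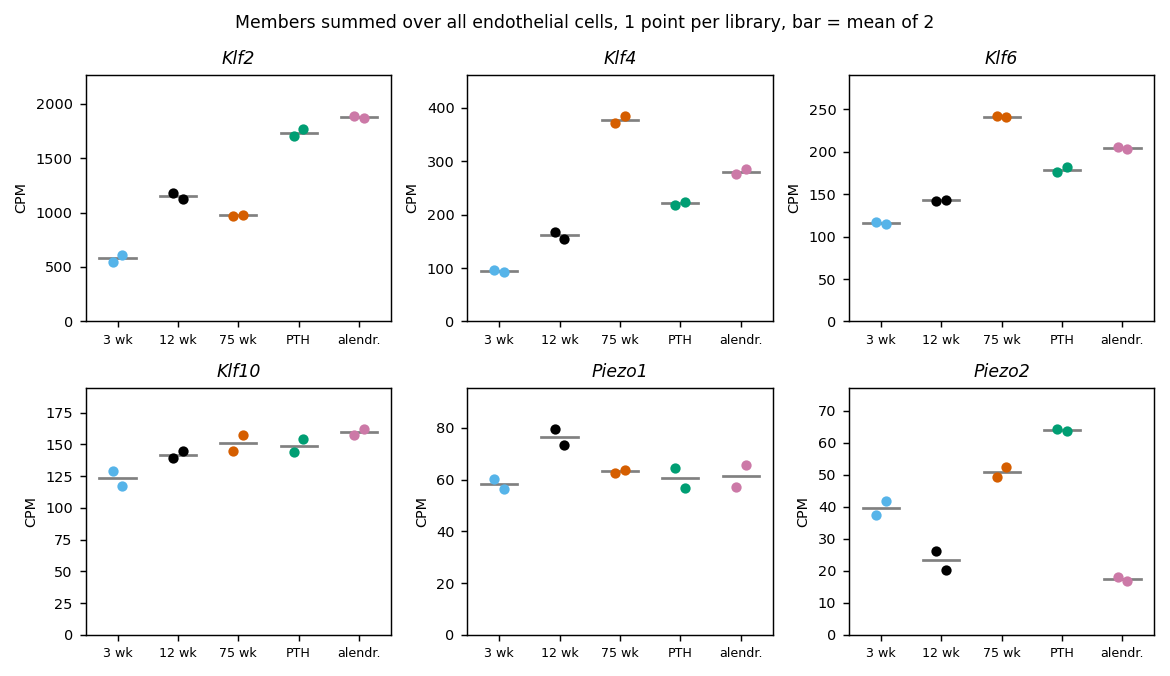
Level of each of the 6 genes summed over all ECs of a library, in CPM on an axis from 0, with 1 point per library and a bar at the mean of 2. Klf2 rises from 545 and 615 CPM at 3 weeks to 1889 and 1867 CPM after alendronate, and Klf4 is highest at 75 weeks (371 and 385 CPM).

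By edgeR's test over all ECs, 6 of 6 genes passed an adjusted p of 0.05 at 3 weeks, where 43.1% of all genes did, with 5 lower against a background of 22%. At 75 weeks 5 of 6 passed, where 73.7% of all genes did, a share near that of the 6 genes. After PTH 5 of 6 passed against 29.6%, and after alendronate 6 of 6 against 27.8%. Klf10 did not pass at 75 weeks (0.09) or after PTH (0.08), and its calls were lost at 3 weeks without juvenile replicate 2 (-0.13) and after alendronate without adult replicate 1 (0.15) or alendronate replicate 2 (0.15). Without aged replicate 1, Klf10 passed at 75 weeks (0.16). The 18 immediate early and dissociation genes also moved: summed, they took 3216 to 3294 CPM in adult, 2057 to 2086 in juvenile, 2009 to 2096 in aged, 3059 to 3317 in PTH and 3863 to 3931 in alendronate libraries. Of these 18 genes 15 were lower at 3 weeks, 12 at 75 weeks and 8 after PTH, and 13 were higher after alendronate. Only 1 direction is counted in each, and others moved the other way, as did Hspa1b at 75 weeks (66.1 and 51.3 against 13.3 and 12.4 CPM). Without the TMM factor the falls of Jund and Hspa1a at 75 weeks turned to 0.22 and 0.04. Klf genes can themselves be induced while tissue is digested, and Klf2 is not taken as an exception. Without the cells above the 75th percentile of these genes, the calls of Piezo1 at 75 weeks (-0.10) and of Klf10 after alendronate (0.11) were lost, and the other 20 were kept. A kept call is not an unchanged size. Over all other settings the change after alendronate ran from 0.45 to 0.74 for Klf2, from 0.48 to 0.86 for Klf4 and from 0.28 to 0.53 for Klf6. The part of digestion in the rest was not tested. Haematopoietic transcripts of leukocytes were low, at 46.0 to 49.3 CPM summed over 9 genes in adult ECs and between 8.65 and 76.6 in the other groups. The 6 erythroid genes took more and varied more between libraries, at 235 to 286 CPM in adult, 423 to 829 in juvenile, 608 to 1538 in aged, 70.1 to 76.2 in PTH and 211 to 474 in alendronate ECs. Within types they reached 5201 CPM in bmEC-like cells of aged replicate 2, against 244 to 329 in adult bmEC-like cells, and over 2000 CPM in mpEC-like cells of juvenile replicate 2, aged replicate 1 and alendronate replicate 2, against 177 to 269 in adult mpEC-like cells. Changes without each of these libraries are given below where they end a call, and the part of the erythroid genes was not otherwise tested.

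Within types, 11 of 24 gene and type combinations passed at 3 against 12 weeks. In bmEC-like cells 4 of 6 genes passed, where 35.9% of all genes did, and all 4 were lower against a background of 18%. Klf2 lay at 254 and 264 CPM in juvenile and 515 and 519 in adult bmEC-like libraries. Both juvenile libraries lay at about the same distance below the adult ones, with a log2 fold change of -0.99 ± 0.05 (SE, edgeR adjusted p = 1.21e-16). The same gene in aEC-like cells lay at 2082 and 2561 against 4017 and 3767 CPM, with no overlap and a change of -0.73 ± 0.07 (SE, edgeR adjusted p = 1.68e-09). In rEC-like cells Klf2 lay at 1161 and 1423 against 1640.2 and 1644 CPM (-0.32, adjusted p = 0.0595), which did not pass. Piezo1 was lower in juvenile bmEC-like cells, at 62.1 and 57.0 against 103 and 90.7 CPM (-0.69 ± 0.08 SE, edgeR adjusted p = 9.97e-09), and its changes in the other 3 types did not pass. Piezo2 was higher in juvenile mpEC-like cells, at 136 and 159 against 112 and 90.8 CPM (0.54 ± 0.11 SE, edgeR adjusted p = 0.00041). Its higher level in juvenile rEC-like cells (2.09) stood on 10 and 8 counts against 7 and 8. All of the juvenile counts came from the cluster with Ccl21a, and the 6 lymphatic genes summed to 543 to 3442 CPM in juvenile rEC-like cells against 290.4 to 478 in adult ones. Klf4 was lower in mpEC-like cells with a change of -0.67 ± 0.14, from 69.6 and 76.7 to 54.5 and 37.4 CPM, and Klf10 in bmEC-like cells with one of -0.36 ± 0.07.

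The remaining calls at 3 weeks were smaller and less secure. In mpEC-like cells 3 of 6 passed against 19.5%, in aEC-like cells 3 of 6 against 9.54% and in rEC-like cells 1 of 6 against 3.53%. Leaving out 1 library ended 5 of the 11 calls. These were Klf4 in bmEC-like cells (-0.23) without adult replicate 1 (-0.20) or juvenile replicate 2 (-0.15), and Klf4 in mpEC-like cells without juvenile replicate 2 (-0.42). In aEC-like cells they were Klf4 (-0.48) without adult replicate 1 (-0.33) or juvenile replicate 1 (-0.30) and Klf6 (-0.46) without juvenile replicate 1 (-0.36). In rEC-like cells it was Piezo2 without adult replicate 1 (1.93) or juvenile replicate 1 (1.82). Without cells high in immediate early genes, Klf4 in bmEC-like and aEC-like cells, Klf6 in aEC-like and Piezo2 in rEC-like cells lost their calls. The summed level of those genes was lower in juvenile than in adult libraries in each type, for example 1731 to 2072 against 3423 to 3614 CPM in aEC-like cells.

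The change at 3 weeks differed between types for 3 of 6 genes by the edgeR test of the interaction of type and group, where 9.11% of all genes passed. The adjusted p was 7.13e-10 for Klf2, 0.00414 for Klf6 and 0.0294 for Piezo1. Klf2 was the firmest of them, its change running from -0.99 in bmEC-like to -0.27 in mpEC-like cells, and without juvenile replicate 1 or adult replicate 1 only 1 of the 6 genes passed. Over the other settings its mpEC-like change ran from -0.65 to -0.20 and its bmEC-like change from -1.01 to -0.77.

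At 75 against 12 weeks, 15 of 24 combinations passed, but most genes did so in these comparisons, 65.3% for bmEC-like, 63.4% for mpEC-like, 53.3% for aEC-like and 49.2% for rEC-like cells. The members' counts were 5, 5, 3 and 2 of 6 in the same order, above those shares in bmEC-like and mpEC-like cells and under them in aEC-like and rEC-like cells. Because most genes passed, sizes and directions are given rather than calls. Klf2 fell in 3 types, also without the TMM factor (-1.39 in bmEC-like, -0.44 in mpEC-like and -0.64 in aEC-like cells), and did not pass the test in the other. In bmEC-like cells it lay at 145 and 180.1 CPM in aged against 515 and 519 in adult libraries. No other group reached so low a level. The change was -1.80 ± 0.06 (SE, edgeR adjusted p = 2.18e-23), a 3.49-fold fall as fitted with the scaling of the bmEC-like sums alone. Aged Klf2 was below adult Klf2 in each of the 3 large bmEC-like clusters, at 155 to 199 against 476 to 484 plain CPM in the largest, 158 to 199 against 403 to 466 in the next and 148 to 222 against 446 to 474 in the shallow one (the whole type at 160.4 and 198 against 466 and 473 plain CPM), and the call was kept without the shallow clusters. In mpEC-like cells Klf2 fell from 889.7 and 914 to 581 and 595 CPM (-0.66) and in aEC-like cells from 4017 and 3767 to 2423 and 2303 CPM (-0.73). Over the other settings these changes ran from -1.44 to -0.34 in mpEC-like and from -1.42 to -0.62 in aEC-like cells, the largest falls being those without integration. The rEC-like level lay at 1626 and 1669.7 against 1640.2 and 1644 CPM (0.04) and did not pass. Its 2 clusters lay on opposite sides of the adult levels, with Klf2 at 2105 to 2417 against 1804 to 1845 plain CPM in the larger and 945 to 1200.4 against 1312 to 1339.5 in the one with Ccl21a, neither of which was tested alone. Klf4 rose in the types other than bmEC-like. It lay at 836 and 959.7 CPM in aged against 200.2 and 213 in adult rEC-like libraries. The aged libraries were the highest rEC-like sums of Klf4, above the alendronate libraries (593 and 597 CPM) and further above the juvenile and PTH ones, and the change was 2.16 ± 0.11 (SE, edgeR adjusted p = 1.07e-15), or 4.47-fold. Klf4 rose from 69.6 and 76.7 to 162 and 147 CPM in mpEC-like (1.04) and from 565 and 455 to 939.8 and 921 CPM in aEC-like cells (0.86), although without integration of the libraries these 2 differences turned to -0.0117 and -0.0397 and were not called. Within the mpEC-like clusters Klf4 lay at 100.5 to 132 against 67.1 to 72.8 plain CPM in the deeper and at 297 to 299 against 96.5 to 97.2 in the shallower one. In bmEC-like cells it was called lower by a small amount (-0.19), but higher without the TMM factor (0.22, adjusted p = 0.00678), so no direction is given for it. In plain CPM it lay at 127 and 119 against 107 and 104 in the whole type, at 127 to 131 against 111 to 114 in the largest bmEC-like cluster, 75.5 to 116 against 90.2 to 91.7 in the next and 113 to 150.0 against 84.7 to 99.9 in the shallow one. Both rEC-like clusters showed the Klf4 rise, with 1166 to 1432 against 182 to 225 plain CPM in the larger and 488 to 493 against 185 to 211 in the one with Ccl21a.

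Klf6 rose in aged bmEC-like cells, at 182 and 203 against 89.0 and 97.3 CPM (0.91 ± 0.07 SE, edgeR adjusted p = 1.31e-13), in rEC-like (0.62) and in mpEC-like cells (0.50), where the call was lost without integration (0.04). Its aEC-like difference was 0.11 and did not pass. No change of Klf10 passed at this age, but without the TMM factor Klf6 in aEC-like cells (0.19) and Klf10 in bmEC-like (0.29), mpEC-like (0.31) and rEC-like cells (0.32) were called higher. Of the channels, Piezo2 lay at 205 and 212 CPM in aged against 112 and 90.8 in adult mpEC-like libraries. The aged libraries were the highest of all mpEC-like sums, with a change of 1.00 ± 0.11 (SE, edgeR adjusted p = 1.58e-09). It was also called higher in bmEC-like cells (1.24), on 24 and 32 counts against 30 and 19. Its mean bmEC-like share over all libraries lay below the haematopoietic mean at 1000 UMIs and above it at 2000. Piezo1 was called lower in bmEC-like cells (-0.48), a call that was lost without the TMM factor (-0.06, adjusted p = 0.545). In plain CPM it lay at 81.8 and 86.5 against 93.0 and 82.6 in the whole type, at 76.6 to 83.6 against 92.4 to 92.7 in the largest cluster, 58.2 to 68.4 against 61.4 to 94.6 in the next and, the other way, 119 to 131 against 87.6 to 88.8 in the shallow one. Piezo1 was called higher in mpEC-like (0.45) and aEC-like cells (0.47). The mpEC-like call was lost without integration (0.05, adjusted p = 0.927), without the shallow clusters (0.18, adjusted p = 0.326) and at a resolution of 0.3 (0.20), and within the mpEC-like clusters Piezo1 lay at 63.5 to 77.3 against 52.7 to 58.9 plain CPM in the deeper and 123 to 164 against 72.4 to 85.8 in the shallower one. The aEC-like call was lost with DESeq2 (0.50), with a stricter filter on cells (0.34) and with no filter on low counts (0.49). Leaving out 1 library ended 3 of the 15 calls: Klf4 in bmEC-like cells without adult replicate 1 (-0.18) or aged replicate 2 (-0.17), Piezo1 in mpEC-like cells without adult replicate 2 (0.36) or aged replicate 1 (0.28), and Piezo1 in aEC-like cells without adult replicate 1 (0.26) or aged replicate 1 (0.42). Klf4 in bmEC-like cells turned to 0.13 without cells high in immediate early genes, and Piezo1 there was no longer called (-0.18). Those genes were lower in aged than in adult libraries, at 2119 to 2298 against 3371 to 3484 CPM in rEC-like cells where Klf4 rose, and at 1580.1 to 1664 against 3599 to 3754 in bmEC-like cells where Klf2 fell. The change differed between types for 4 of 6 genes, where 20.6% of all genes passed, with an adjusted p of 1.55e-20 for Klf2, 9.76e-16 for Klf4, 1.07e-06 for Klf6 and 0.000441 for Piezo1.

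**Figure D3:**
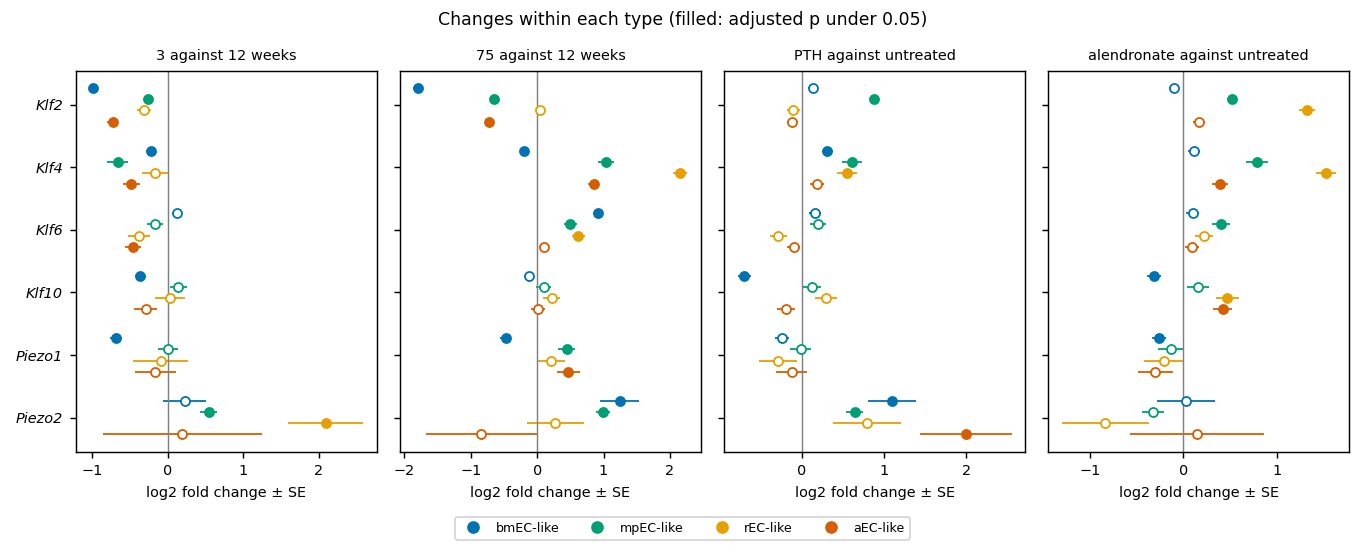
Change of each gene within each type in the 4 comparisons with adult, as log2 fold change with its SE, filled where the edgeR adjusted p was under 0.05. At 75 weeks Klf2 (-1.80 in bmEC-like cells) and Klf4 (2.16 in rEC-like cells) lie on opposite sides of 0, and after alendronate the rEC-like points of Klf2 (1.32) and Klf4 (1.52) stand out.

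After PTH, 8 of 24 combinations passed. In mpEC-like cells 3 of 6 genes passed and all 3 were higher, against a background of 7.54% and 3.91% higher. Klf2 lay at 1695 and 1627 CPM in PTH against 889.7 and 914 in adult mpEC-like libraries. The PTH libraries were the highest mpEC-like sums of Klf2, with a change of 0.88 ± 0.06 (SE, edgeR adjusted p = 1.02e-12), or 1.84-fold. This change ran from 0.50 to 0.95 over the other settings. Piezo2 lay at 164 and 154 against 112 and 90.8 CPM, without overlap (0.64 ± 0.11 SE, edgeR adjusted p = 7.75e-05), and Klf4 at 107 and 115 against 69.6 and 76.7 CPM (0.61 ± 0.12 SE, edgeR adjusted p = 0.0005). The Klf4 call was lost with 15 principal components (0.18), without integration (0.19) and with types by marker UMIs (0.27). In bmEC-like cells 3 of 6 passed against 8.35%. The one with the smallest p was a fall of Klf10, the TGF-beta responsive member, from 106 and 113 to 69.4 and 68.0 CPM (-0.70 ± 0.08 SE, edgeR adjusted p = 1.40e-07), the lowest bmEC-like level of any group. Klf4 was called higher by a small amount (0.31) and Piezo2 by 1.10, on 15 and 42 counts against 30 and 19. Klf2 (0.13, adjusted p = 0.151) and Piezo1 (-0.24, adjusted p = 0.0888) did not pass in these cells. Klf2 lay below the adult libraries in aEC-like cells, at 3467 and 3719.8 against 4017 and 3767 CPM (-0.12, adjusted p = 0.414), and in rEC-like cells, at 1467 and 1599.9 against 1640.2 and 1644 CPM (-0.10, adjusted p = 0.59), neither of which passed, while it was higher over all ECs. The Piezo2 calls in bmEC-like and aEC-like cells concern low levels. Over all libraries its mean share was below the haematopoietic one in both types at 1000 UMIs, and at 2000 UMIs only in aEC-like cells. Shares in the PTH libraries alone are not given. In aEC-like cells 1 of 6 passed against 4.97%, Piezo2 (1.99), on 12 and 33 counts against 5 and 2, and in rEC-like cells 1 of 6 against 6.19%, Klf4 (0.55, but 1.19 without integration). The Piezo2 change in aEC-like cells ran from 1.05 to 2.69 over the other settings.

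Leaving out 1 library ended 3 of the 8 calls after PTH. Piezo2 in aEC-like cells was lost without PTH replicate 1 (1.97), PTH replicate 2 (2.03), adult replicate 1 (2.69) or adult replicate 2 (1.56). Piezo2 in bmEC-like cells was lost without PTH replicate 2 (1.02) or adult replicate 2 (0.87), and also without cells high in immediate early genes (0.92) and without the shallow clusters (0.97). Klf4 in rEC-like cells was lost without PTH replicate 2 (0.45) or adult replicate 1 (0.50), and also without cells high in immediate early genes (0.44). The immediate early genes summed to 4368 to 4782 CPM in PTH against 3599 to 3754 in adult bmEC-like cells, and the Klf4 rise there turned to -0.09 without the cells high in them. In mpEC-like cells, where Klf2 rose most, they were lower after PTH, at 2189 to 2415 against 2749 to 2799.6 CPM. The change differed between types for 3 of 6 genes, where 4.98% of all genes passed, with an adjusted p of 3.44e-15 for Klf2, 0.000105 for Klf10 and 0.0421 for Klf6. For Klf6, whose change passed in no single type, aEC-like (-0.10) and rEC-like levels (-0.28) lay below the adult ones and bmEC-like (0.16) and mpEC-like levels (0.20) above them. The rEC-like cells after PTH held more of the Ccl21a cluster, which is lower in Klf6, and within that cluster Klf6 lay at 223 to 260.1 against 198 to 234 plain CPM and in the other at 445 to 481 against 495 to 503.

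After alendronate, 10 of 24 combinations passed, and the largest lay in rEC-like cells, where 3 of 6 genes passed and all 3 were higher, against a background of 2.69% and 1.44% higher. Klf2 lay at 4257 and 3980.2 CPM in alendronate against 1640.2 and 1644 in adult rEC-like libraries. No other rEC-like sum came near these 2, and the change was 1.32 ± 0.08 (SE, edgeR adjusted p = 2.05e-12), or 2.50-fold. Klf4 lay at 593 and 597 against 200.2 and 213 CPM, without overlap, a change of 1.52 ± 0.11 (SE, edgeR adjusted p = 4.89e-11), or 2.88-fold. The rise was present in both rEC-like clusters: Klf2 lay at 4546 to 4853 against 1804 to 1845 plain CPM in the larger and at 3075 to 3098 against 1312 to 1339.5 in the one with Ccl21a. The calls of both genes held in each alternative run, with changes from 1.09 to 1.40 for Klf2 and from 1.08 to 1.98 for Klf4. Klf10 was the other gene called there (0.47), and its call was lost without either library of the adult, aged or alendronate groups, at 0.41 to 0.54, without the Ccl21a cluster (0.40) and without the TMM factor (0.43). The immediate early genes rose in the same cells, at 4818 to 4927 against 3371 to 3484 CPM with 10 of 17 called higher, and their part in the rise of Klf2 and Klf4 was tested only by leaving out the cells high in them. In mpEC-like cells 3 of 6 passed, all higher, against 8.86% and 5.45% higher: Klf2 from 889.7 and 914 to 1298 and 1278 CPM (0.52), Klf4 from 69.6 and 76.7 to 121 and 131 (0.79) and Klf6 from 144 and 145 to 186 and 195 (0.41). Without cells high in immediate early genes, the call of Klf6 in these cells was lost (0.21), and without integration that of Klf4 (0.22). Klf4 was higher in both mpEC-like clusters, at 97.2 to 100.1 against 67.1 to 72.8 and 195 to 205 against 96.5 to 97.2 plain CPM, while Klf6 lay at 184 to 203 against 137 to 142 in the deeper one and overlapped in the other.

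In bmEC-like cells 2 of 6 passed after alendronate against 16.5%, Klf10 (-0.31) and Piezo1 (-0.26), both lower against a background of 7.09%. Klf2 lay at 489 and 477 against 515 and 519 CPM in these cells (-0.10, adjusted p = 0.203) and did not pass. In aEC-like cells 2 of 6 passed against 5.05%, Klf10 (0.42) and Klf4 (0.39), both higher against a background of 2.88%. Klf10 thus moved in one direction in sinusoidal and in the other in arterial and type R cells. Leaving out 1 library ended 5 of the 10 calls beside that of Klf10 in rEC-like cells. Klf10 in bmEC-like cells was lost without adult replicate 2 (-0.26) or alendronate replicate 1 (-0.24), Piezo1 in bmEC-like cells without adult replicate 1 (-0.17) or alendronate replicate 1 (-0.15), and Klf6 in mpEC-like cells without adult replicate 1 (0.40), adult replicate 2 (0.41) or alendronate replicate 2 (0.37). In aEC-like cells Klf10 was lost without adult replicate 1 (0.30) or alendronate replicate 1 (0.37) and Klf4 without adult replicate 2 (0.24) or alendronate replicate 2 (0.30). Without cells high in immediate early genes the Klf4 difference in aEC-like cells stood at 0.10 and was not called. The change differed between types for 3 of 6 genes, where 3% of all genes passed, with an adjusted p of 2.80e-20 for Klf2, 8.12e-09 for Klf4 and 0.000798 for Klf10.

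**Figure D4:**
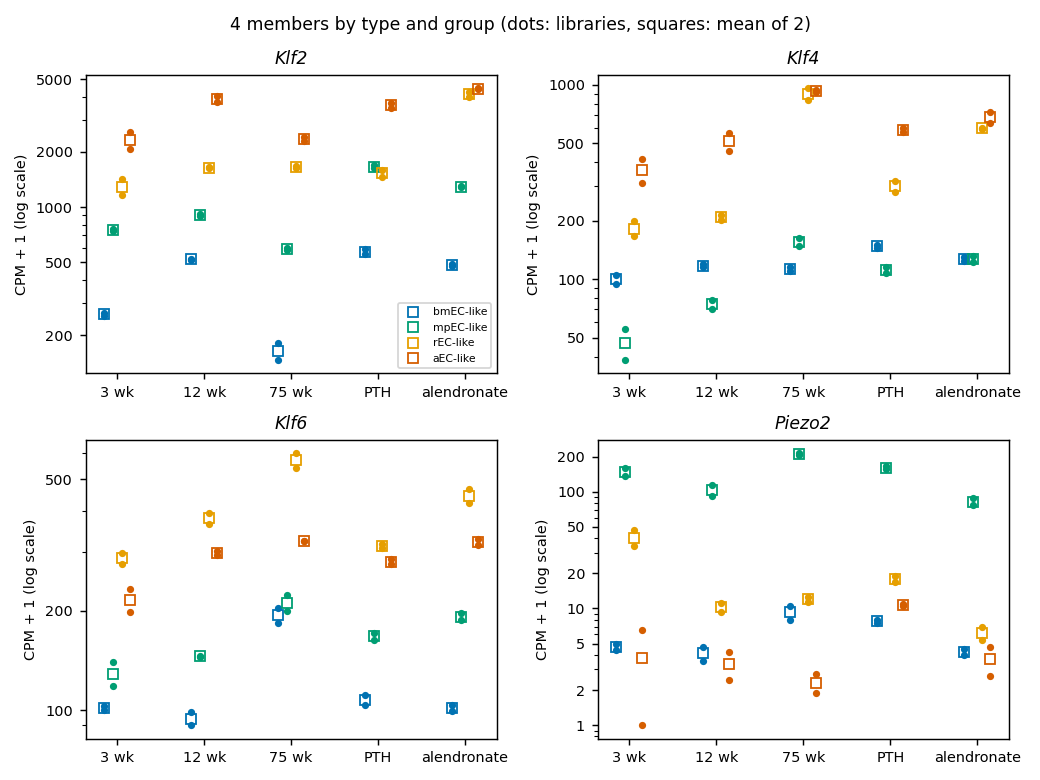
Klf2, Klf4, Klf6 and Piezo2 in the 4 types and 5 groups, as CPM + 1 on a log axis with dots for libraries and squares for the mean of 2. Klf2 of bmEC-like cells is lowest at 75 weeks (145 and 180.1 CPM), Klf4 of rEC-like cells highest at 75 weeks (836 and 959.7 CPM), and Piezo2 stays highest in mpEC-like cells in each group.

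**Figure D5:**
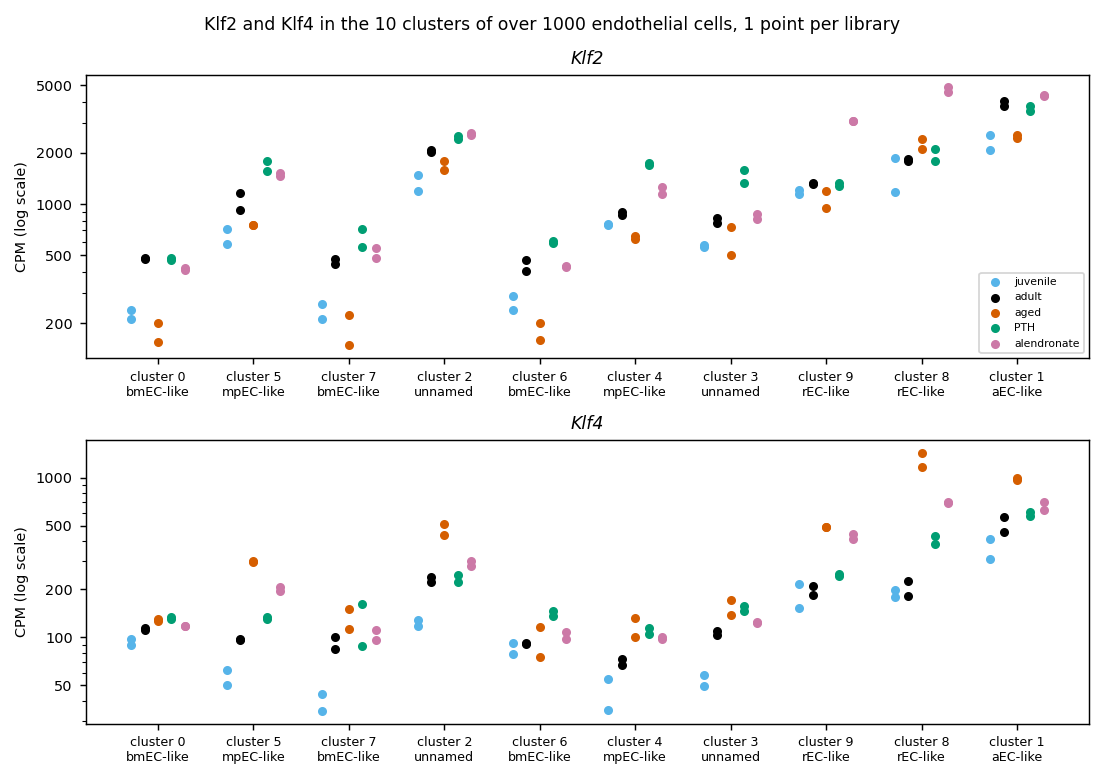
Klf2 and Klf4 in the 10 clusters of over 1000 endothelial cells, as plain CPM on a log axis with 1 point per library coloured by group and the type named under each cluster. In both rEC-like clusters the alendronate points of Klf2 and the aged points of Klf4 lie above the adult points.

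Of the 7 genes of the relay upstream of Klf2 and Klf4, 6 passed over all ECs at 75 weeks, where 73.7% of all genes did, with 5 higher, 1 lower and a median change of 0.91 beside 0.02 for all genes. Map3k3, which encodes MEKK3, went from 18.2 and 17.8 to 65.4 and 61.6 CPM (1.82), Map3k2 from 18.2 and 17.8 to 41.5 and 41.9 (1.21) and Mef2a from 95.8 and 92.8 to 205 and 199 (1.10). Mapk7, which encodes ERK5 and is named here after its values were seen, was the lower one, at 13.8 and 12.9 against 17.9 and 19.6 CPM. Within types 5 of 7 were higher in bmEC-like and rEC-like cells and 4 of 7 in mpEC-like and aEC-like cells, where between 49.2% and 65.3% of all genes passed. In the other comparisons 3 of 7 were higher at 3 weeks, 4 after PTH and 1 after alendronate with 1 lower, against 43.1%, 29.6% and 27.8% of all genes passing, at medians of 0.16, 0.12 and 0.12. The same shares of all genes stand beside the counts that follow, and at 75 weeks most genes of any kind passed. Without the TMM factor the numbers higher and lower at 75 weeks became 6 and 0 of the 7 relay genes, Mapk7 being no longer called, 3 and 1 of the CCM genes, 12 and 1 of the flow sensors, 3 and 1 of the Piezo partners, 8 and 1 of the other Klf genes, 3 and 1 of the induced targets and 3 and 2 of the repressed ones below. Of the 4 CCM genes 2 were higher and 2 lower at 75 weeks, 1 and 1 at 3 weeks, and 2 higher and 0 lower after either treatment. Of the 13 other flow sensors 9 were higher and 4 lower at 75 weeks, 3 and 5 at 3 weeks, 6 and 4 after PTH, and 5 and 4 after alendronate. Of the 5 Piezo partners the numbers were 3 and 2, 2 and 1, 1 and 0, and 2 and 1 in the same order, and of 10 tested among 13 other Klf genes 6 and 3, 2 and 2, 2 and 1, and 2 and 0.

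The induced targets moved one by one rather than as a group. Over all ECs S1pr1 rose at 75 weeks (1.30), at 3 weeks (0.38), after PTH (0.37) and after alendronate (0.46). Nos3 fell at 3 weeks (-0.47), as Klf2 and Klf4 did, and rose at 75 weeks (0.70), after PTH (0.30) and after alendronate (0.30). Thbd fell in all 4 comparisons, with -0.38 at 3 weeks, -0.87 at 75 weeks, -0.67 after PTH and -0.12 after alendronate. Aqp1 was 358 and 363 CPM in juvenile against 1589 and 1588 in adult libraries (-2.14). In all, beside the shares of all genes above, 1 of 4 tested rose and 3 fell at 3 weeks, 2 and 2 at 75 weeks, and 3 and 1 after PTH and after alendronate, with medians of -0.43, 0.21, 0.27 and 0.28. In alendronate rEC-like cells, where Klf2 rose most and Klf4 also rose, 0 of the 4 induced targets passed, where 2.69% of all genes did, at a median of -0.15. Among the repressed targets in those cells, Ccl2 (-3.45) was lower, but near the floor. Over the 10 rEC-like sums it averaged 6.13 ± 9.18 CPM (SD) and ranged from 0 to 25.4 CPM. In PTH mpEC-like cells 2 of 6 repressed targets were lower, where 7.54% of all genes passed in either direction, Vcam1 (-1.29) and the chemokine Ccl2 (-1.42). In aged bmEC-like cells, with the lowest Klf2, 3 of 6 were higher and 2 lower, where 65.3% of all genes passed, among them Sele higher (1.47) and Vcam1 lower (-0.79). Over all ECs 2 of 6 repressed targets rose and 3 fell at 3 weeks, 3 and 3 at 75 weeks, 2 and 2 after PTH, and 2 and 1 after alendronate, at medians of -0.52, -0.07, -0.16 and -0.21.

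Across the 40 sums of 1 type in 1 library, the genes most like each member were found among 6716 genes by Pearson's r of log2(CPM + 1), as a description over points that share libraries and types. Klf2 was most like Slc9a3r2 (0.935), Hey1 (0.930), an arterial marker used to name the cells, and Id1 (0.924). Klf4 was most like Arid5b (0.919), Tmpo (0.918) and Rras (0.915), and Klf6 most like Lbr (0.948), Mfsd6 (0.947) and Palmd (0.940). Klf10 was most like Enpp3 (0.873), Pecam1 (0.870) and Prnp (0.850). Piezo1 was most like Svil (0.864), Mtm1 (0.853) and Sh3bp5 (0.844), and Piezo2 most like Smtn (0.8895), Gnb4 (0.8875) and Tspan18 (0.876). Among the members, r was 0.734 between Klf2 and Klf4, 0.792 between Klf4 and Klf6, 0.216 between Piezo1 and Piezo2 and -0.764 between Klf2 and Piezo1.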

How the data were processed

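The deposited tables hold UMI counts per gene and cell, made by the authors with UMI-tools 1.1.2, STAR 2.7.10a on mm10 and featureCounts 2.0.3 and not normalized. The annotation release, the strand setting and which library used which version of the 10x kit are not given in the sources used here. Groups came from the sample labels, and the 6 genes, the gene lists and the markers were chosen with earlier results of these data known. Genes in fewer than 3 cells were dropped, as were 276 names found only in the aged tables, which took 1.52% and 1.53% of their UMIs.

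Clusters were made with Seurat 5.3.0 from 2000 variable features without the 6 genes and the listed genes (82 in all), by anchors between the 10 libraries, 30 principal components and a resolution of 0.5. The integrated embedding was used in place of integrated expression values, which exceeded the memory at hand. A cluster took the name of the marker list that scored highest, with at least 3 markers up by over 0.5 on the log2 scale (pseudocount 10 CPM), a score of at least 0.3 and a lead of 0.3. A cluster of 117 cells led by B-lineage genes was left out after its genes were seen, 8664 ECs kept no name and counted only among all ECs, and no doublets were called.

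Counts were summed per library and type, for sums of at least 20 cells, and tested with edgeR 4.0.16 (TMM, filterByExpr, quasi-likelihood; levels within clusters and of summed lists used plain totals) with Benjamini-Hochberg adjustment over all genes tested. Types were compared with the library as a block. Groups were compared in 1 fit over all 10 libraries, and a type-dependent change was the F test of the interaction. DESeq2 1.42.0 was an alternative. On simulated counts with 200 genes changed 2-fold, the fit over all ECs called 175 of 200 at 75 weeks among 13990 genes with 4 false calls, and the fit of aEC-like cells against the rest called 200 of 200 among 10902 genes with 7 false calls. The changed genes lay over 20 CPM. The simulation used a fixed dispersion and the same mean in all libraries and types, without library or type-by-group differences. It checks that the fits run as meant and does not give their error rates on the real counts. Replicates of a group differed by more than the counting of UMIs alone gives, with chi-square over degrees of freedom from 1.90 to 2.80. This ratio does not separate the drawing of different cells from other differences. Intervals are the estimate plus and minus 1.96 SE, the SE being derived from the F statistic of the test. Their 95% is nominal, since a normal quantile can make them narrower than 95% intervals of the fit. Floors of 3 counts cover counting error only. The genes named from lists were at most the 4 called genes of largest change per list with a mean of at least 20 CPM, or any gene of a list of up to 6, and the 3 most like genes per member. R 4.3.3, Python 3.11.15, numpy 2.4.6, pandas 2.3.3, scipy 1.17.1 and matplotlib 3.10.9 were used. Alternatives covered the clustering, the naming, the normalization, the filters, the tool, the block and the libraries. The values of 1 listed gene are not reported here.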

Additional observations from a re-analysis of the deposited data

Results flagged for a closer look

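The change against adult libraries differed between the 4 endothelial types for 13 of the 24 combinations of gene and comparison, by the interaction test of edgeR with Benjamini-Hochberg adjustment. At 3 weeks the adjusted p was 7.13e-10 for Klf2, 0.00414 for Klf6 and 0.0294 for Piezo1. At 75 weeks it was 1.55e-20 for Klf2, 9.76e-16 for Klf4, 1.07e-06 for Klf6 and 0.000441 for Piezo1. For PTH it was 3.44e-15 for Klf2, 0.000105 for Klf10 and 0.0421 for Klf6, and for alendronate 2.80e-20 for Klf2, 8.12e-09 for Klf4 and 0.000798 for Klf10. Klf2 was among them in all 4 comparisons, and its largest change lay in bmEC-like cells at 3 weeks (-0.99) and at 75 weeks (-1.80), in mpEC-like cells after PTH (0.88) and in rEC-like cells after alendronate (1.32). Piezo2 was not among them in any comparison. At 75 weeks it was called higher in both mpEC-like and bmEC-like cells. Its sums outside mpEC-like cells held few counts, which limits what this test can show for Piezo2. Of all genes 9.11% passed this test at 3 weeks, 20.6% at 75 weeks, 4.98% for PTH and 3% for alendronate.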

How the results depend on the processing

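A total of 125 single values were recomputed under 28 other settings, 3065 values in all, of which 2890 kept their direction and their side of the threshold, 137 were no longer called, 15 became called and 23 turned in direction. The calls of Klf2 and Klf4 in alendronate rEC-like cells, of Klf4 in aged rEC-like cells and of Klf2 in aged bmEC-like cells were kept in each setting that gave a value. The settings on the Ccl21a cluster, the shallow clusters, the B-lineage cluster, the seed of the clustering and total counts with no TMM factor were chosen after seeing the data. With the other seed, 1 single call was lost, that of Klf4 in bmEC-like minus mpEC-like cells (0.30). A change in the numerical libraries alone, now fixed, had moved cells between clusters and several calls near the threshold, so the other seed shows only a part of what the clustering can change.

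Without 1 library at a time, the number of calls went from 10 to 12 for each type against the rest (11 with all libraries) and from 31 to 33 for pairs of types (33). Over all ECs it went from 5 to 6 at 3 weeks and at 75 weeks, stayed at 5 for PTH, and went from 4 to 6 for alendronate. Within types it went from 8 to 12 at 3 weeks (11), from 13 to 15 at 75 weeks (15), from 5 to 9 for PTH (8) and from 6 to 10 for alendronate (10). For type-dependent changes it went from 1 to 4 at 3 weeks (3), stayed at 4 at 75 weeks, went from 2 to 4 for PTH (3) and stayed at 3 for alendronate. The calls within types for PTH dropped to 5 without PTH replicate 2, and those for alendronate to 6 without adult replicate 1 or alendronate replicate 1. Only 1 type-dependent change at 3 weeks remained called without juvenile replicate 1 or without adult replicate 1.

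Other settings moved 2 counts by over 1.5 times. Type-dependent changes at 3 weeks numbered 5 at resolutions of 0.3 and 0.8, with 15 principal components and without integration. Within types, 3 of 23 tests passed for PTH with types set by marker UMIs and 5 of 23 without cells high in immediate early genes.

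The directions that turned were mostly those of rEC-like cells against another type. Piezo2 in bmEC-like minus rEC-like cells became 1.25 without integration, 0.70 with types by marker UMIs and 0.69 without the Ccl21a cluster, and in aEC-like minus rEC-like cells 2.89, 0.71 and 0.41. In the latter pair Klf4 became -0.33, Klf10 0.12 and Piezo1 0.15 without integration, and -0.22, 0.10 and 0.0384 by marker UMIs. Piezo2 in aEC-like cells against the rest became 0.73 without integration. Klf4 in bmEC-like minus mpEC-like cells became -0.29 with 15 principal components, -0.17 by marker UMIs and -0.0283 without cells high in immediate early genes. Without the latter cells, Klf4 in bmEC-like cells became 0.13 at 75 weeks and -0.0875 for PTH. Without integration Klf4 at 75 weeks became -0.0117 in mpEC-like and -0.0397 in aEC-like cells. Without the TMM factor, at 75 weeks, Klf2 became 0.11 and Piezo1 0.0696 over all ECs and Klf4 0.22 in bmEC-like cells. The cause was not tested.

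Replicate numbers did not pair the libraries: the correlation of same-numbered deviations ran from -0.0385 to 0.0743 over 10 pairs of groups, above 0.1 in 0. With the replicate number as a block, the calls over all ECs stayed at 6, 5, 5 and 6, and those within types were 11, 15, 8 and 10 for 3 weeks, 75 weeks, PTH and alendronate. Depth limits Piezo2 outside mpEC-like cells, where sums held as few as 0 counts.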

Other observations

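The 2 large clusters of ECs that kept no type name held 4380 and 4284 cells, and their values are given by group as the range of the 2 libraries, in CPM of the plain UMI total. The first had Gja4 and Ramp3 among its leading genes and scored for arterial and, by a small margin less, metaphyseal markers. Its Klf2 level, 1191 to 1485 CPM in juvenile, 2037 to 2079.5 in adult, 1595 to 1802 in aged, 2400.5 to 2501 in PTH and 2555 to 2614 in alendronate libraries, lay between the mean levels of mpEC-like and aEC-like cells. Klf4 in this cluster was highest at 75 weeks, at 438 to 509 against 222 to 239 CPM in adult libraries. Its Piezo2 level was 61.4 to 62.3 CPM in juvenile, 22.4 to 32.3 in adult, 42.7 to 46.9 in aged, 63.4 to 67.5 in PTH and 12.1 to 15.5 in alendronate libraries, with the lowest values after alendronate.

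The second unnamed cluster, with Dnase1l3 and Cdkn1c among its leading genes, scored for sinusoidal and, by a small margin less, metaphyseal markers. Its Klf2 level was 1323 to 1577 CPM after PTH against 771 to 833 in adult, 821 to 873 in alendronate and 504 to 732 in aged libraries, the PTH libraries standing highest as they did in mpEC-like cells. Piezo2 was 71.8 to 77.4 CPM at 75 weeks and 51.1 to 63.3 after PTH against 15.6 to 22.8 in adult libraries. Klf4 was 49.4 to 58.2 CPM at 3 weeks against 104 to 110.0 at 12 weeks. The 871 proliferating (pEC-like) cells, led by Top2a and other cell cycle genes, carried Piezo2 at a mean of 97.1 ± 55.6 CPM (SD, n = 9 libraries with enough cells) and Klf2 at 867 ± 366 CPM.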
